A study of Mus musculus with 48 samples.

Results

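Somatostatin neurons of the embryonic hypothalamus were examined in control and Eed-cKO mice. A cell was counted as a somatostatin (Sst) neuron when it held at least 2 unique molecular identifiers (UMIs, each standing for 1 captured mRNA molecule) of Sst, 0 UMIs of Npy and at least 1 UMI of at least 3 of 6 neuron genes, Stmn2, Tubb3, Snap25, Syt1, Elavl4 and Rbfox3. In all, 605 of 14121 cells met this rule, 239 in control and 366 in Eed-cKO, out of 11122 cells that met the neuron rule alone. The comparison set, called other neurons below, was made of the 5434 control and 4540 Eed-cKO neurons with 0 UMIs of Sst. The cells were thus chosen by their measured UMIs of Sst, Npy and the neuron genes, whose levels are given without a test.

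The hypothalamus was dissected at embryonic day E18.5, divided into 2 to 4 pieces, dissociated with papain, and captured in droplets for 3′ single-cell RNA sequencing. Control embryos carried loxP-flanked Eed on both alleles (Eed fl/fl) without Cre, and Eed-cKO embryos were Eed fl/fl; Sox1-Cre/+, on a mixed B6:129S1 background. Eed is a core subunit of Polycomb repressive complex 2, which methylates lysine 27 of histone H3 and keeps developmental genes silent. Sox1-Cre acts across the neural tube from the neural plate onward, so Cre activity preceded neurogenesis and was not restricted to Sst neurons or to the hypothalamus. The paper reports that the methylation mark was lost only some days after Cre became active. When the mark was lost in the cells that gave rise to Sst neurons was not tested. There were 6 control embryos from 4 litters (22 libraries) and 9 Eed-cKO embryos from 6 litters (26 libraries). Both sexes were present in each genotype, with more males than females in control and more females than males in Eed-cKO. No litter held both genotypes, so litter and genotype cannot be told apart. Eed transcripts do not check the deletion directly, because reads are taken from the 3′ end, outside the deleted exons. In CPM, the UMIs of a gene scaled to the same total in each embryo, Eed stood at 23.8 ± 6.72 (mean ± SD, n = 6) in control Sst neurons and at 24.4 ± 6.14 (n = 8) in those of Eed-cKO embryos. In other neurons it stood at 30.6 ± 1.93 in control and 23.5 ± 4.27 in Eed-cKO. The paper reports Eed as downregulated in Eed-cKO over all hypothalamic neural cells of this stage.

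Somatostatin is a secreted peptide that inhibits release of growth hormone from the pituitary, and it also acts as a co-transmitter. In the hypothalamus, Sst neurons are known in the periventricular, arcuate and other nuclei, and both GABAergic and glutamatergic kinds have been described. GABA release requires the vesicular transporter Slc32a1 (VGAT) and the synthesising enzymes Gad1 and Gad2, while glutamate release in most hypothalamic neurons uses the vesicular transporter Slc17a6 (VGLUT2). Homeobox genes of the Hox clusters pattern the hindbrain and spinal cord and are normally silent in the forebrain.

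The libraries differed in ways that bear on these cells. One control library, from embryo F4650_E2, held 1207 cells against 163 to 465 in the others and contributed 45 Sst neurons, 9 of them positive for both transporters; the results below are given without it where they moved. Across all libraries, 101 cell barcodes were found in more than 1 library and covered 203 cells. Control Sst neurons had a median depth of 5889 UMIs and control other neurons one of 5179.5, and the Eed-cKO medians were 6238.5 and 4688.5. The Sst neurons of an embryo summed to between 147464 and 718025 UMIs, except in Eed-cKO embryo F0582_E2. Its 7 Sst neurons were too few for the tests on classes, genes and Hox load. They entered the share of neurons and the counts pooled over all cells of a genotype.

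The label was checked against markers that the rule did not use. Meg3 was detected in 98.7% of control and 100% of Eed-cKO Sst neurons, Stmn3 in 97.9% and 98.9%, Gap43 in 96.7% and 98.1%, and Map2 in 89.1% and 90.2%. Of the other neuron markers in this list of 10, Celf4 was found in 96.2% and 96.4%, Snhg11 in 95.8% and 97.8%, and Ina in 72.8% and 80.6%. Syn1 was found in 68.6% and 72.4%, Nefl in 31.0% and 45.9%, and Nefm in 26.8% and 27.9%. At least 3 markers of one non-neural class (endothelial, pericyte, leptomeningeal or microglial) were found in 3 control and 16 Eed-cKO members. Among markers of neural tube cells other than neurons, at least 3 of 8 astrocyte markers were found in 6 control and 29 Eed-cKO members, 3 of 8 tanycyte and ependymal markers in 2 and 25, 3 of 6 cycling progenitor markers in 0 and 15, and 3 of 6 oligodendrocyte precursor markers in 2 and 0. Astrocyte markers summed to 110 to 363 CPM in the control embryos and 139 to 400 CPM in the Eed-cKO embryos, and cycling progenitor markers to 0 to 37.3 and 4.25 to 178 CPM. Results without the cells of the non-neural classes are given below where they moved, and the part of the cells with glial, ependymal or cycling markers was not tested. Leptomeningeal markers summed to 0 to 289 CPM in the control embryos and 0 to 223 CPM in the Eed-cKO embryos, with medians of 7.99 and 36.4 CPM. Of 6 microglial markers, 1 had any UMI in control Sst neurons and 6 in Eed-cKO Sst neurons, and of 4 pituitary markers 0 and 4. The 14 stress and immediate early genes summed to 1027 to 2103 CPM in control and 1303 to 2125 CPM in Eed-cKO.

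Sst itself, on chromosome 16 from 23889573 to 23890958 (GRCm38, minus strand), chose the cells, so its level is a description. It stood at 1809 to 3167 CPM in the control embryos and 1260 to 3124 CPM in the Eed-cKO embryos, ranges that overlapped. Control members had a median of 7 UMIs of Sst and Eed-cKO members one of 6, and the highest cell held 274 and 604. At the edge of the rule, 40 control and 88 Eed-cKO members had exactly 2 UMIs, while 163 control and 211 Eed-cKO neurons with 0 UMIs of Npy had 1 UMI and were left out. A further 54 control and 82 Eed-cKO neurons had at least 2 UMIs of Sst but also some Npy. In 271 control cells of non-neural classes (endothelial, pericyte, leptomeningeal or microglial), 1 cell or 0.369% had a UMI of Sst and 0 had 2 or more, which allows a share of up to 1.11%. In 433 such Eed-cKO cells the shares were 1.85% and 0.462%. Those cells had median depths of 3606 and 3618 UMIs, and such intervals and limits cover counting error only.

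Sst neurons made up a larger share of neurons in Eed-cKO. The share in the 6 control embryos was 3.28% at the lowest, 4.19% at the median and 4.45% at the highest, with a mean of 4.00% ± 0.50 (SD, n = 6). In the 9 Eed-cKO embryos it was 4.62%, 5.78% and 12.2%, with a mean of 7.02% ± 2.89 (SD, n = 9). The ranges did not overlap, and 2 of the Eed-cKO embryos, F0589_E1 at 12.2% and F502_E9 at 11.7%, lay far above the rest. These embryos also had the lowest Sst levels of the Eed-cKO group, 1434 and 1260 CPM, and their Sst neurons held Top2a, a gene of dividing cells, at 32.2 and 19.6 CPM, with 0 in the other 6 Eed-cKO embryos that were summed. Aqp4, an astrocyte and ependymal water channel, stood at 16.8 and 19.6 CPM there and at 0 to 4.23 CPM in the others. Top2a is 1 of 6 cycling progenitor markers and Aqp4 1 of 8 astrocyte markers. The 6 cycling markers summed to at least 4.25 CPM in each Eed-cKO embryo, with a median of 7.29 CPM. The part of cycling and glial cells in the share was not tested. The difference of 3.03 percentage points had an exact two-sided permutation p of 0.0004, the smallest that 15 embryos can give. Deeper cells pass the rule more easily; with every cell thinned to 2000 UMIs the means were 2.87% and 4.95% and the difference was 2.08 points (exact permutation p = 0.0132). Control embryos gave 26 to 61 Sst neurons out of 792 to 1371 captured neurons, and Eed-cKO embryos gave 7 to 92 out of 151 to 882, so the share speaks of composition and not of absolute number.

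More Sst neurons carried transcripts of both the GABA and the glutamate transporter in Eed-cKO. A cell was called GABA when it had Slc32a1 without Slc17a6, Glut when it had Slc17a6 without Slc32a1, Glut/GABA when it had both, and neither otherwise. Glut/GABA cells made up 2.5% of the Sst neurons at the lowest, 6.71% at the median and 18.0% at the highest in control embryos, with a mean of 8.46% ± 5.53 (SD, n = 6). In Eed-cKO embryos the values were 37.3%, 42.6% and 53.6%, with a mean of 43.2% ± 5.69 (SD, n = 8). The groups did not overlap, and the lowest Eed-cKO embryo was above the highest control embryo, F4650_E2, by more than either SD. The difference of 34.7 points had an exact two-sided permutation p of 0.00133 after adjustment over the 4 classes.

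GABA cells moved the other way. They made up 24.6%, 47.5% and 51.6% of control Sst neurons at the lowest, median and highest embryo and 2.78%, 13.7% and 20.5% of Eed-cKO Sst neurons. The means were 42.6% ± 10.8 and 12.0% ± 6.97 (SD, n = 6 and 8), again without overlap, and the share fell by 30.6 points (adjusted exact permutation p = 0.00133). Glut cells made up 32% ± 8.03 and 31.2% ± 3.11, a difference of -0.845 points (adjusted exact permutation p = 0.786). The sign of the Glut difference depended on how the classes were scored: it was 6.71 points at 2000 UMIs per cell (adjusted exact permutation p = 0.0879), and -15.3 points, past the threshold, where Gad1 or Gad2 also counted as GABA (adjusted exact permutation p = 0.000888). Cells with neither transporter made up 16.9% ± 12.5 and 13.7% ± 8.00 (adjusted exact permutation p = 0.758). In the Glut class and in this one the embryos of the 2 genotypes overlapped.

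**Figure D1:**
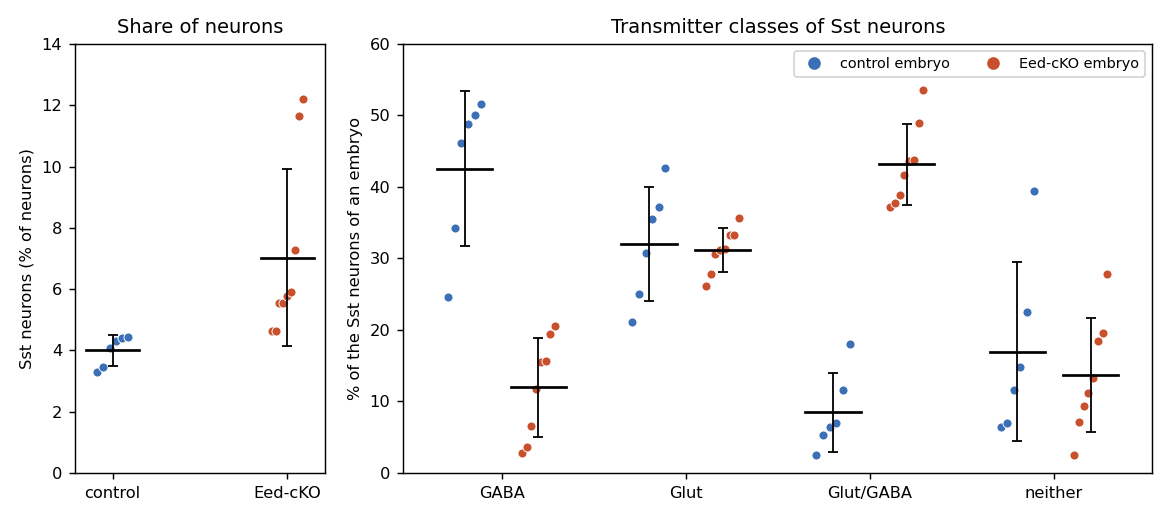
The left panel plots Sst neurons as a percentage of the neurons of each embryo, and the right panel plots the percentage of the Sst neurons of each embryo in each transmitter class (embryos with at least 10 Sst neurons). Each point is an embryo, lines are means and bars are SD. The Eed-cKO embryos sit at 37.3% to 53.6% Glut/GABA cells, all above the control embryos at 2.5% to 18.0%, and the order is turned for GABA cells.

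A cell can be scored for both transporters only if it was captured deeply enough. At a fixed depth of 2000 UMIs, Glut/GABA cells were 2.39% ± 1.89 of control and 16.1% ± 6.26 of Eed-cKO Sst neurons, a difference of 13.7 points (adjusted exact permutation p = 0.00266). GABA cells were then 31.1% ± 9.91 and 15.4% ± 7.20 (adjusted exact permutation p = 0.00932), and 220 of 239 control and 344 of 359 Eed-cKO Sst neurons were deep enough to enter. Asking for 2 UMIs of each transporter gave a difference in Glut/GABA cells of 19.2 points, and removing the cells with the highest doublet scores gave 38.0 points. Of the 70 members that carried a high doublet score, 18 were Glut/GABA cells. The non-neural control cells had Slc17a6 in 7.75%, Slc32a1 in 2.95% and both in 0.369% of cells, and the non-neural Eed-cKO cells had them in 7.62%, 1.39% and 0.462%.

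The summed levels of the transporters were less far apart than the classes. Slc17a6 (chromosome 7, 51622006 to 51671119) stood at 220 CPM at the lowest, 283 at the median and 388 at the highest control embryo and at 329, 465 and 559 CPM in Eed-cKO. The groups overlapped in part, and Slc17a6 rose by 0.56 ± 0.14 on the log2 scale (log2 fold change ± SE, adjusted p = 0.0187). Slc32a1 (chromosome 2, 158610767 to 158615748) stood at 129, 152 and 287 CPM in control, and 132, 165 and 206 were the Eed-cKO values; the fitted log2 difference was -0.08 ± 0.17 (adjusted p = 0.913). Gad1 and Gad2 had log2 fold changes of 0.02 ± 0.18 and -0.32 ± 0.18, and none of the 4 GABA genes passed the test.

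Other neurons of the same embryos also held more Glut/GABA cells in Eed-cKO, but the difference was larger in Sst neurons. Within control embryos the Glut/GABA share of Sst neurons exceeded that of other neurons by -1.66 to 9.71 points, and within Eed-cKO embryos by 16.9 to 30.7 points. The 2 ranges did not overlap. The means were 3.84 and 24.2 points, and the difference of 20.3 points had an exact two-sided permutation p of 0.000666, the smallest that 14 embryos can give. At 2000 UMIs per cell the difference was 8.97 points, with the same p.

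**Figure D2:**
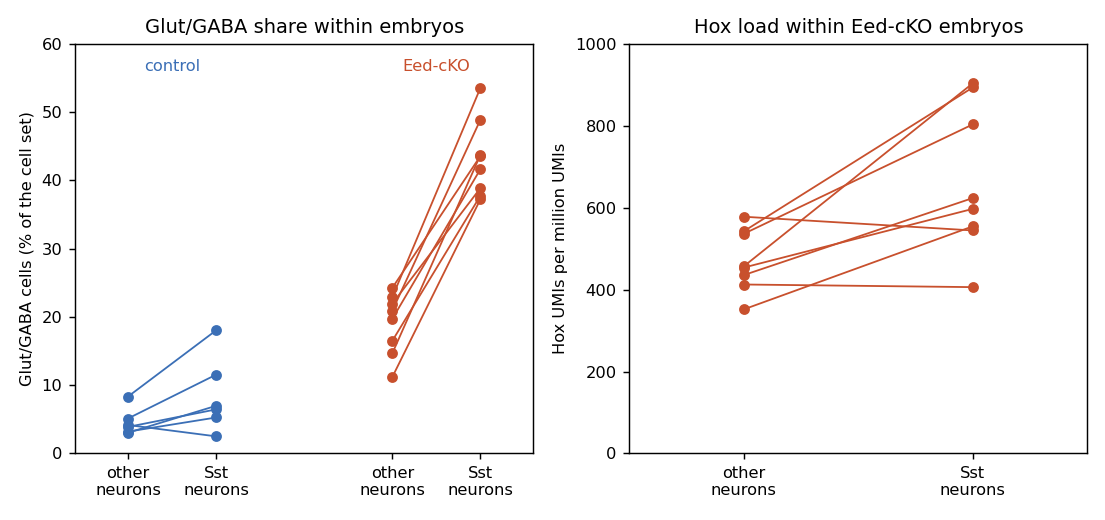
The left panel joins, for each embryo, the percentage of Glut/GABA cells among other neurons and among Sst neurons; the right panel joins the summed Hox UMIs, in CPM, in the same cell sets of the 8 Eed-cKO embryos with at least 10 Sst neurons. The Eed-cKO lines in the left panel climb by 16.9 to 30.7 points, and 6 of the 8 lines in the right panel climb.

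The genes of Sst neurons were then compared between genotypes on UMI sums per embryo with edgeR's quasi-likelihood test. Of 11628 genes tested, 233 passed an adjusted p of 0.05 (2.00%), of which 145 rose (1.25%) and 88 fell (0.757%). Without the large control library the number was 281, and leaving out 1 embryo gave 149 (without control embryo F4520_E4) to 288 genes. The per-embryo values of the 2 genotypes did not overlap for 72 genes that were higher (0.619%) and 29 that were lower (0.249%). The median log2 fold change over all genes tested was 0.01. A change in such a sum can come from more cells with the transcript or from more of it per cell, so the share of cells with a UMI is given beside the main genes.

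Among transcription factors of the brainstem, cerebellum, spinal cord and periphery, Tal1 and Gata3 rose. Of 48 listed factors, 24 were tested, 12 rose and 1 fell, and their median log2 fold change was 3.60. The filter asked for at least 15 UMIs over the sums of both genotypes. A factor with 0 control UMIs entered only through Eed-cKO and could rise but not fall, so this count and median lean upward. Tal1, a basic helix-loop-helix factor that directs GABAergic fate in midbrain and spinal interneurons, lies on chromosome 4 (115056426 to 115071755). It had 0 UMIs in every control embryo and 97.9 CPM at the lowest, 127 at the median and 188 at the highest Eed-cKO embryo. It was at least 73.2-fold higher, counted against a floor of 3 UMIs over the control group (log2 fold change 8.33 ± 0.52, adjusted p = 1.11e-13). Tal1 was detected in 0 of 239 control Sst neurons, which allows a share of up to 1.26%, and in 174 of 366 or 47.5% of Eed-cKO Sst neurons.

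Gata3, a zinc-finger factor that acts together with Tal1 in those interneurons (chromosome 2, 9857078 to 9890034), was at 0 CPM in 5 control embryos and 19.5 CPM in F4520_E4. In Eed-cKO it was at 79.7, 127 and 215 CPM, all above control, and it rose by 4.85 ± 0.45 (adjusted p = 4.71e-10). It was found in 1 control and 109 Eed-cKO Sst neurons, 29.8% of the latter. Within GABA Sst neurons alone its log2 fold change was 2.37 and did not pass (adjusted p = 0.117). Its paralogue Gata2 rose at a low level, from 0 UMIs to 31 UMIs. Tfap2b, a factor of cerebellar and spinal inhibitory progenitors and of the neural crest, rose by 2.95 ± 0.52 (adjusted p = 0.000337), with values of 0 CPM in 5 control embryos, 97.7 in F4520_E4 and 58.7 to 443 CPM in Eed-cKO. The control UMIs came from 2 cells, one of which held 30 of the 35.

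The other risers of this group were scarce. Twist1, a factor of mesoderm and neural crest, went from 0 UMIs to 18.6 to 84.6 CPM and was at least 17.1-fold higher (adjusted p = 5.5e-06). Dmbx1, Pax2, Pax8 and En1, which take part in patterning of the midbrain and hindbrain, Tlx1, a factor of dorsal spinal neurons, and Hand2 and Msx1, factors of limb and neural crest, each went from 0 UMIs to between 17 and 41. The one member of the list that fell was Prdm12, a regulator of nociceptor and Pomc neurons, from 3.26 to 133 CPM in control to 0 to 21.3 CPM in Eed-cKO (log2 fold change -2.40 ± 0.60, adjusted p = 0.02). Its embryos overlapped, and it did not pass with DESeq2 or without any one of F0589_E1, F4520_E4, F4650_E1 and F4690_E3.

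**Figure D3:**
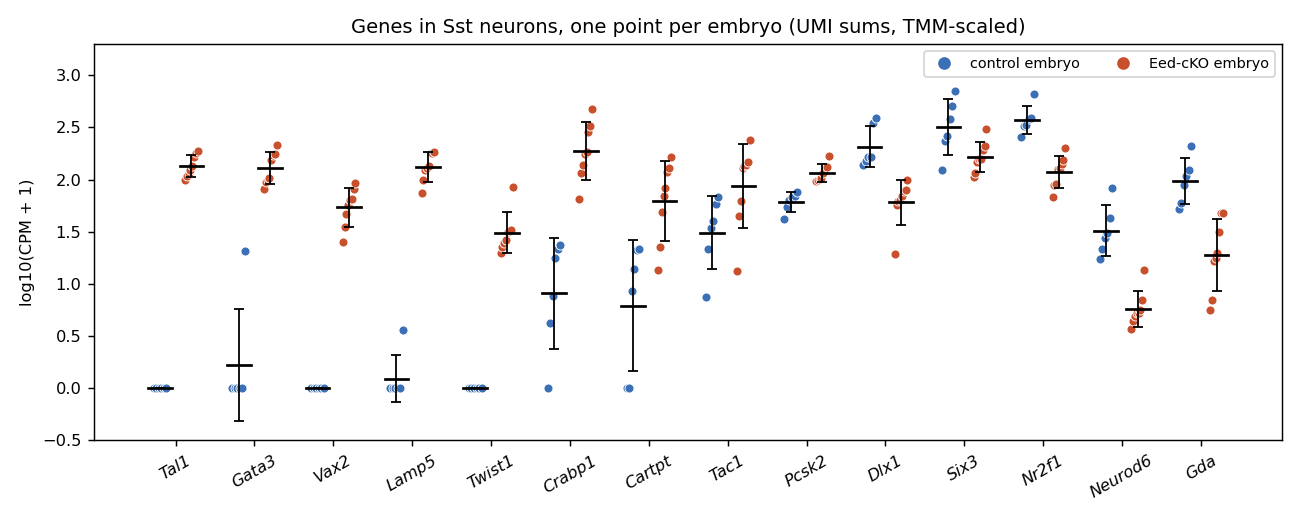
Levels of 14 genes in the Sst neurons of each embryo, as log10(CPM + 1), with CPM scaled by TMM (the trimmed mean of M-values). Each point is an embryo with at least 10 Sst neurons, lines are means and bars are SD. Tal1, Vax2 and Twist1 sit at 0 in all 6 control embryos and above 0 in all 8 Eed-cKO embryos, while Dlx1, Nr2f1, Neurod6 and Gda lie lower in all Eed-cKO embryos than in any control embryo.

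Some factors of forebrain GABAergic neurons fell. Of 26 listed, 22 were tested, 0 rose and 4 fell, with a median log2 fold change of -0.83. Dlx1, a homeobox factor needed for forebrain GABAergic differentiation (chromosome 2, 71528113 to 71533981), stood at 137, 164 and 390 CPM in control and at 18.3, 65.5 and 97.1 CPM in Eed-cKO. The groups did not overlap, and Dlx1 fell by 1.75 ± 0.23 on the log2 scale (adjusted p = 2.45e-06). It was detected in 61.9% of control GABA Sst neurons, in 9.76% of Eed-cKO GABA Sst neurons and in 35.8% of Eed-cKO Glut/GABA Sst neurons. The antisense transcript Dlx1as, which overlaps Dlx1, also fell (log2 fold change -2.47 ± 0.65, adjusted p = 0.0308), and reads of the pair can be told apart only if strand was used in counting, which the sources used here do not state.

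Six3, a factor of the anterior neural plate, stood at 122 to 699 CPM in control and 105 to 305 CPM in Eed-cKO and fell by 1.04 ± 0.24 (adjusted p = 0.00993). Sp8, a zinc-finger factor of ganglionic eminence derivatives, fell by 2.37 ± 0.55 (adjusted p = 0.0105). It stood at 6.51 to 71.3 CPM in control, at 0 to 6.75 CPM in 7 Eed-cKO embryos and at 41.1 CPM in F0582_E7. Sp8 did not pass with doublets removed, with DESeq2 or without control embryo F4690_E3. Dlx2, Dlx5 and Dlx6os1 had log2 fold changes of -0.89, -0.87 and -0.89 and did not pass, with adjusted p of 0.163, 0.28 and 0.297. Isl1, Meis2 and Sox6 had values of -0.72, -0.54 and -1.13 and did not pass either.

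Among factors of hypothalamic and diencephalic identity, 48 of 60 listed were tested, 8 rose and 3 fell, with a median log2 fold change of 0.19. Vax2, a ventral homeobox factor of the eye and forebrain (chromosome 6, 83711264 to 83738313), had 0 UMIs in control and 24.3, 59.2 and 91.3 CPM in Eed-cKO and was at least 31.0-fold higher (adjusted p = 5.51e-09). It was detected in 26.2% of Eed-cKO Sst neurons. Meis1, a cofactor of Hox proteins, rose by 2.06 ± 0.41, from 0 to 30.7 CPM in control to 25.4 to 74.4 CPM in Eed-cKO (adjusted p = 0.0022). Nr4a2, an orphan nuclear receptor of dopaminergic neurons, Tbr1, a T-box factor of glutamatergic neurons, and Nkx2-2, a ventral patterning factor, rose by 2.17, 2.12 and 1.94, and Zic2, Onecut2 and Foxp1 by 1.08, 1.07 and 0.92. The embryos of the 2 genotypes overlapped for each of these 7 genes.

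The 3 that fell were Nr2f1, Tcf7l2 and Neurod6. Nr2f1, an orphan nuclear receptor of forebrain patterning (chromosome 13, 78188973 to 78199757), stood at 255, 355 and 654 CPM in control and at 67.6, 127 and 199 CPM in Eed-cKO. Its groups did not overlap, and it fell by 1.63 ± 0.19 (adjusted p = 8.37e-08). Neurod6, a factor of glutamatergic neurons, fell by 2.44 ± 0.45, from 16.3 to 82.9 CPM to 2.66 to 12.6 CPM (adjusted p = 0.00063). Tcf7l2, a Wnt effector of thalamus and habenula, fell by 2.16 ± 0.40 (adjusted p = 0.000674), with embryos that spread from 11.3 to 843 CPM in control and from 27.0 to 237 CPM in Eed-cKO, and it did not pass with DESeq2.

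Sst neurons of Eed-cKO embryos carried more of several other neuropeptides. Of 31 listed, 17 were tested, 5 rose and 0 fell, with a median log2 fold change of 0.76. The same filter of UMIs over both genotypes applied here. Peptides with few control UMIs entered mainly through Eed-cKO and could hardly fall, so this count and median lean upward. Cartpt, a feeding-related peptide, stood at 0, 10.3 and 20.7 CPM in control and at 12.7, 75.4 and 164 CPM in Eed-cKO, rose by 2.89 ± 0.48 (adjusted p = 0.000119) and was found in 3.77% and 21.9% of cells. Tac1, the precursor of substance P, stood at 6.51 to 67.6 CPM and at 12.1 to 237 CPM and rose by 1.62 ± 0.37 (adjusted p = 0.0105). Pnoc, the precursor of nociceptin, rose by 0.76 ± 0.20 (adjusted p = 0.0356) and was found in 27.6% and 46.4% of cells. Npw, neuropeptide W, went from 1 UMI to 26, a ratio of 17.3 (95% counting interval, 2.84 to 709).

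Avp, the precursor of vasopressin, passed the test on the strength of 1 embryo. Its values were 0, 4.46 and 13.3 CPM in control and 0, 2.83 and 757 CPM in Eed-cKO, and the highest, in F0652_E8, rested on a cell with 179 UMIs. The log2 fold change was 4.48 ± 1.13 (adjusted p = 0.0218), and without that embryo it was 0.97 and no longer passed. Avp also lost the call with sex as a covariate, with DESeq2 and without any one of F4520_E4, F4650_E2 and F4690_E3. Penk and Gal, for enkephalin and galanin, had log2 fold changes of 1.40 ± 0.47 and 0.84 ± 0.32 and did not pass (adjusted p = 0.139 and 0.206).

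Of 13 genes of peptide processing and release, 1 rose. Pcsk2, the convertase that helps to cleave prosomatostatin, stood at 41.3 to 75.4 CPM in control and 95.9 to 166 CPM in Eed-cKO, with no overlap, and rose by 0.89 ± 0.19 (adjusted p = 0.00466). Pcsk1 had a log2 fold change of -0.28 ± 0.55. Of the somatostatin and growth hormone receptors only Sstr1 and Ghr were abundant enough to test, and neither passed (0.12 ± 0.28 and -0.65 ± 0.48).

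Cell-cycle inhibitors, Polycomb subunits and synaptic genes gave the following counts. Of 6 cyclin-dependent kinase inhibitors tested, 1 rose: Cdkn2b, a long-known Polycomb target, went from 0 to 50 UMIs and was at least 11.1-fold higher (adjusted p = 9.72e-05). Cdkn2a had 0 and 16 UMIs and did not pass (adjusted p = 0.0689). None of 10 Polycomb repressive complex 2 genes passed, Ezh2 at 0.09 ± 0.28 and Suz12 at -0.22 ± 0.21 among them. None of 30 synaptic and mature neuron genes and 1 of 10 immature neuron genes passed, the latter being Dlx1as. Of 14 stress and immediate early genes, Ier2 rose (log2 fold change 2.00 ± 0.49, adjusted p = 0.0179).

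The remaining genes with the largest changes were of mixed function. Lamp5, a lysosome-associated protein of some GABAergic neurons (chromosome 2, 136052239 to 136069917), went from 1 UMI to 331, a ratio of 220 (95% counting interval, 39.2 to 8723). Its Eed-cKO values were 72.6, 131 and 182 CPM, and 33.1% of Eed-cKO Sst neurons had a UMI (adjusted p = 7.12e-14). Crabp1, a retinoic acid binding protein, rose by 4.28 ± 0.43, from 0 to 22.5 CPM to 64.0 to 479 CPM. Ccnd1, cyclin D1, rose by 3.19 ± 0.37 and Hddc3, a hydrolase, by 2.99 ± 0.30. Within GABA Sst neurons alone, where fewer cells entered, Hddc3 was at 2.07 and did not pass. The embryos of these 4 genes did not overlap between genotypes.

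Gda, guanine deaminase, fell by 2.18 ± 0.32, from 51.7 to 210 CPM to 4.57 to 47.0 CPM, without overlap. Bdnf, the brain-derived neurotrophic factor, and Cpne4, a copine, fell by 1.97 ± 0.45 and 1.94 ± 0.33. Bdnf was at -1.63 and did not pass with doublets removed. Within GABA Sst neurons alone, where fewer cells entered, Cpne4 was at -0.64 and did not pass. Ptgds, a prostaglandin synthase abundant in leptomeninges, had a log2 fold change of -5.07 ± 0.93 (adjusted p = 0.000674), but its control values were 0 to 25.9 CPM in 5 embryos and 3650 CPM in F4520_E2. Leaving out that embryo turned the value to 1.04, and leaving out the cells with 3 non-neural markers turned it to 0.22; leptomeningeal markers had their highest sum in a control embryo, 289 CPM.

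Whether a genotype difference was larger or smaller in Sst neurons than in other neurons of the same embryos was tested as an interaction. Of 15476 genes tested, 75 passed (0.485%), 29 with a higher value in Sst neurons (0.187%) and 46 with a lower one (0.297%). DESeq2 called 16, and leaving out 1 embryo gave 59 to 120 genes, 120 being the number without Eed-cKO embryo F0589_E1. The values that follow are the log2 fold change in Sst neurons minus that in other neurons.

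Gata3 differed by 2.74 ± 0.50 (adjusted p = 0.000173). Its share of Sst neurons went from 0.418% to 29.8%, and its share of other neurons from 1.20% to 10.7%. Tal1 differed by 6.83 ± 1.49 (adjusted p = 0.00437), a size that depends on the fit because control Sst neurons had 0 UMIs, and DESeq2 did not call it (adjusted p = 0.0862); its shares of other neurons were 1.32% and 28.3%. Tfap2b, Crabp1 and Nr2f1, in contrast, had interaction values of -1.01 ± 0.54, 1.05 ± 0.44 and -0.29 ± 0.16 that did not pass. Of 38 posterior factors, 2 passed as higher in Sst neurons and 1 as lower, Tfap2a, a factor of neural crest and epidermis, at -3.38 ± 0.86 (adjusted p = 0.0356). Its 10 UMIs in control Sst neurons came from 2 cells, one of which held 9.

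The neuropeptides Cartpt (1.72 ± 0.42), Penk (1.49 ± 0.39), Tac1 (1.39 ± 0.27) and Gal (1.19 ± 0.26) had higher values in Sst neurons, as did Oxt and Avp, and 6 of 31 tested neuropeptides passed in this direction and 0 in the other. Oxt lost the call with DESeq2, at a minimum of 50 UMIs and without any one of F0571_E3, F0582_E7, F502_E9, F4520_E4 and F4690_E3, and Avp was at 3.06 and did not pass with DESeq2 (adjusted p = 0.822). Control Sst neurons were poor in these peptides: Tac1, for example, stood at 36.7 CPM in control Sst neurons and 107 CPM in control other neurons, and at 112 and 135 CPM in Eed-cKO. Slc17a6 differed by 0.54 ± 0.12 (adjusted p = 0.00308) and Pcsk2 by 0.91 ± 0.19. Nr4a2, Igf1 (insulin-like growth factor 1), Zic2 and Foxp1 also had higher values, of 2.29, 2.18, 1.10 and 0.90; Nr4a2 did not pass with DESeq2 (adjusted p = 0.141).

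Several forebrain GABAergic factors had lower values. Of 26 tested, 7 passed in this direction and 1, Zfhx3, in the other. Among the 7, Nkx2-1, a ventral forebrain patterning factor, differed by -1.03 ± 0.19, Satb1 by -0.98 ± 0.21, Meis2 by -0.93 ± 0.17, Dlx1 by -0.89 ± 0.19, Isl1 by -0.89 ± 0.16 and Six3 by -0.69 ± 0.17. Calcr, the calcitonin receptor, differed by -1.55 ± 0.22 (adjusted p = 4.06e-07). Ptgds, H19, Igf2, Col1a2 and Timp3, which are abundant in leptomeningeal, vascular or glial cells, had values of -4.67 to -2.15, and none of them passed once the cells with 3 non-neural markers were left out.

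Hox transcripts were nearly absent from control neurons and made up a larger part of the RNA of Sst neurons than of other neurons in 6 of 8 Eed-cKO embryos. In control, 239 Sst neurons held 1 Hox UMI in all, of Hoxb13, and 5434 other neurons held 5. In the 8 Eed-cKO embryos the summed Hox load of Sst neurons was 406, 611 and 904 CPM (all Hox UMIs together) at the lowest, median and highest embryo, with a mean of 666 ± 181 (SD, n = 8). Other neurons of the same embryos had 352, 455 and 578, with a mean of 471 ± 75.8. The load was higher in Sst neurons in 6 of 8 embryos, by 195 CPM on average (exact two-sided sign-flip permutation p = 0.0312). In F0589_E1 and F0652_E5 it was slightly lower, and leaving out any one of the 6 other embryos gave p = 0.0625. In F0582_E2, which was not tested, 7 Sst neurons held 9 Hox UMIs, or 269 CPM, against 609 CPM in other neurons.

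The share of cells with a Hox UMI gave the same order at equal depth. Of the Eed-cKO Sst neurons thinned to 2000 UMIs, 54.7% ± 13.3 (SD, n = 8) had a Hox UMI, against 36.0% ± 6.54 of other neurons, a difference of 18.7 points (exact sign-flip permutation p = 0.00781, the smallest that 8 embryos can give). Before thinning the shares were 72.1% and 45.3%. Non-neural Eed-cKO cells, which Sox1-Cre does not target, had a Hox UMI in 13.6% of cells. By class and at 2000 UMIs, a Hox UMI was found in 80.4% of 51 Glut/GABA, 64.8% of 54 GABA, 50% of 118 Glut and 42.2% of 128 cells with neither transporter.

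All 34 Hox genes in the table had a UMI in Eed-cKO Sst neurons. Hoxc10 led with 219 UMIs in 31.1% of cells, followed by Hoxc13 with 197 UMIs in 31.1%, Hoxb13 with 165 UMIs in 30.3% and Hoxd10 with 119 UMIs in 21.6%. The posterior paralogue groups 9 to 13 held 62.9% of all Hox UMIs, and by cluster HoxC held 39.0%, HoxA 23.4%, HoxB 22.1% and HoxD 15.5%. Against control, 21 Hox genes were tested and 20 rose. Only Hoxb13 had any UMI in control Sst neurons, so the others entered this test through Eed-cKO and could rise but not fall. Against other Eed-cKO neurons, 32 were tested, 3 were higher and 0 lower: Hoxb13 by 0.76 ± 0.16, Hoxd10 by 0.68 ± 0.19 and Hoxc13 by 0.59 ± 0.15 on the log2 scale.

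**Figure D4:**
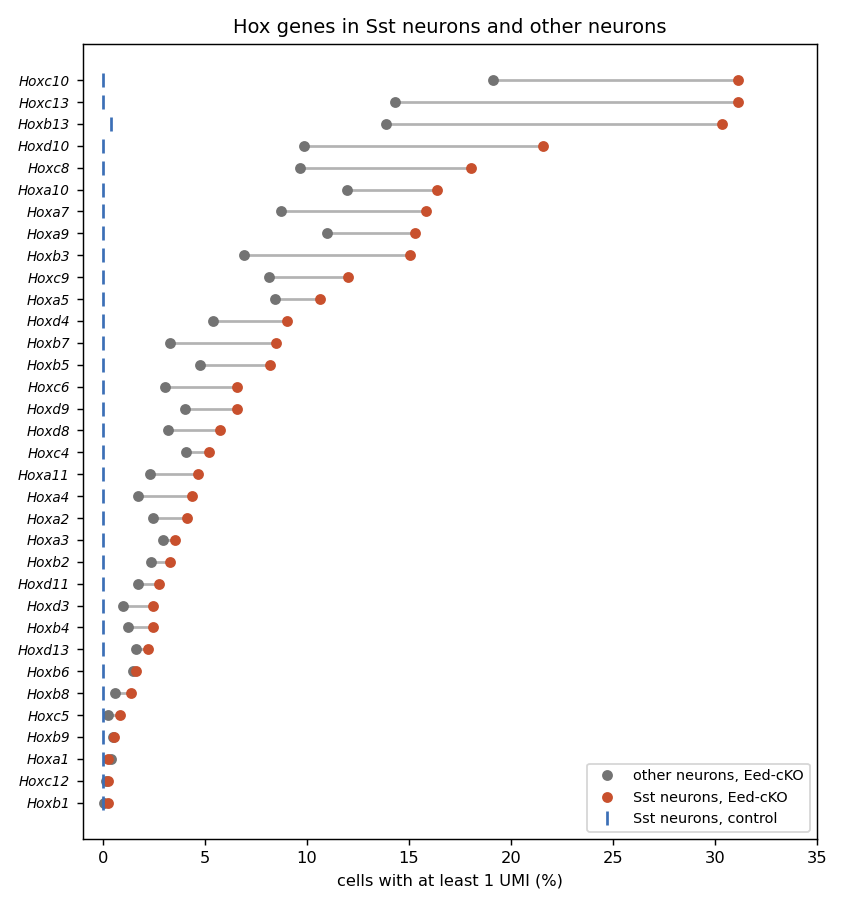
Percentage of cells with at least 1 UMI of each of the 34 Hox genes in Eed-cKO Sst neurons, Eed-cKO other neurons and control Sst neurons, all cells of a genotype pooled and not thinned. Hoxc10 and Hoxc13 reach 31.1% of Eed-cKO Sst neurons, and of control Sst neurons only Hoxb13 shows any, in 1 cell; Sst neurons were the deeper cells, at a median of 6238.5 against 4688.5 UMIs.

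Sst neurons were also compared with other neurons within each genotype, which describes what else the Sst-bearing cells carried. In control, 157 of 14469 genes passed (1.09%), 60 higher (0.415%) and 97 lower (0.670%) in Sst neurons. The split depended on the scaling and was 71 higher and 77 lower by library size alone and 87 and 69 by DESeq2's size factors. Without the embryo as a block 39 genes passed, and DESeq2 called 53.

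Control Sst neurons were rich in GABA genes and in some forebrain GABAergic factors. All 4 GABA genes were higher, Slc32a1 by 0.72 ± 0.12, Gad2 by 0.63 ± 0.10 and Gad1 by 0.43 ± 0.08 among them, while Slc17a6 was lower (-0.38 ± 0.09). Of 25 forebrain GABAergic factors tested, 6 were higher and 1 lower. Among the 6, Meis2 was higher by 1.84 ± 0.11, Sox6 by 1.22 ± 0.32, Sp8 by 1.08 ± 0.29, Six3 by 0.90 ± 0.10 and Isl1 by 0.71 ± 0.11. Pax6, a paired-box factor, stood at 33.0 to 245 CPM in Sst neurons and 10.2 to 32.3 CPM in other neurons, with no overlap, and was higher by 2.37 ± 0.21 (adjusted p = 1.65e-22). Over all genes tested, the embryo values of the cell sets did not overlap for 0.152% with Sst neurons higher and for 4.27% with Sst neurons lower. Calcr and Gpc3, a glypican, were higher by 1.83 ± 0.14 and 1.61 ± 0.25, Calcr not with DESeq2. Ptgds and Igf2 also passed as higher, but through embryo F4520_E2: without it their log2 fold changes were 0.08 and 0.59 and did not pass, and without the cells with 3 non-neural markers they were 0.07 and -0.15.

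Many peptides of other hypothalamic neurons were scarcer in control Sst neurons. Of 31 neuropeptides tested, 15 were lower and 1, Pnoc, was higher (0.65 ± 0.15). Avp stood at 0 to 13.1 CPM in Sst neurons and 197 to 1410 CPM in other neurons, a log2 fold change of -7.15 ± 0.19. Pmch, melanin-concentrating hormone, was at -4.74 ± 0.34, Ghrh, growth hormone-releasing hormone, at -3.57 ± 0.51, and Tac1 at -1.71 ± 0.19. Crh had 0 UMIs in control Sst neurons and was at least 9.15-fold lower. Agrp, which marks cells that also carry Npy and which the rule therefore takes out, had 1 UMI, a ratio of 0.0197 (95% counting interval, 0.000498 to 0.110). Foxb1, a mammillary factor, and Nr4a2 were also lower, with log2 fold changes of -2.88 ± 0.23 and -3.12 ± 0.36.

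In Eed-cKO, 489 of 14557 genes passed (3.36%), 174 higher (1.20%) and 315 lower (2.16%). The split was 219 higher and 247 lower by library size and 268 and 212 by DESeq2's size factors, 106 genes passed without the embryo block, and DESeq2 called 313. Pax6 was the named gene with the highest value, 2.38 ± 0.25, at 4.22 to 143 CPM in Sst neurons and 3.59 to 20.2 CPM in other neurons, where the embryos overlapped. Slc32a1 (0.64 ± 0.10), Gad2 (0.44 ± 0.10) and Gad1 (0.33 ± 0.07) were higher, and Slc17a6 (0.17 ± 0.07) did not pass.

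Among the forebrain GABAergic factors, more were lower than higher in Eed-cKO, with a median log2 fold change of -0.24 against -0.07 over all genes. Of 26 tested, 2 were higher, Meis2 (0.91 ± 0.10) and Esrrg (0.81 ± 0.18), and 6 were lower, among them Nkx2-1 (-1.45 ± 0.12), Dlx2 (-0.99 ± 0.20), Dlx1 (-0.65 ± 0.14) and Satb1 (-0.60 ± 0.14). Of 38 posterior factors tested, 4 were higher and 0 lower: Gata3 (1.36 ± 0.13), Tfap2b (0.91 ± 0.13), Shox2 (0.78 ± 0.15) and Tal1 (0.38 ± 0.11). Gata3 stood at 79.8 to 212 CPM in Sst neurons and 37.3 to 79.1 CPM in other neurons, without overlap, which 0.0687% of all genes tested showed in this direction and 0.666% in the other. Lamp5 (1.60 ± 0.13), Igf1 (1.83 ± 0.25) and Vax2 (1.02 ± 0.18) were higher too, and Foxb1, Cck (cholecystokinin) and Pomc (proopiomelanocortin) were lower, with log2 fold changes of -2.39, -1.69 and -1.83. Pomc did not pass with DESeq2 or without the embryo block.

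Some genes of mature neurons were higher, and some of immature neurons lower, in Eed-cKO Sst neurons than in other neurons. Of 32 synaptic and mature neuron genes tested, 9 were higher and 0 lower, Nefl by 0.60 ± 0.11 and Scn1a by 0.54 ± 0.16 among them. Of 11 immature neuron genes, 5 were lower and 0 higher, Sox4 (log2 fold change -0.63 ± 0.08) and Sox11 (-0.55 ± 0.06) among them. In control the counts were 1 of 32 higher and 4 of 11 lower, and 0 of 32 and 0 of 12 genes of these lists passed the interaction test.

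Of the 157 genes called in control and the 489 called in Eed-cKO, 61 were in both, 38.9% of the control calls and 12.5% of the Eed-cKO calls. Of these, 54 had the same direction. The 7 with opposite directions included Fabp7, Foxp1, Igf2, Olfm3, Plagl1 and Vtn.

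**Figure D5:**
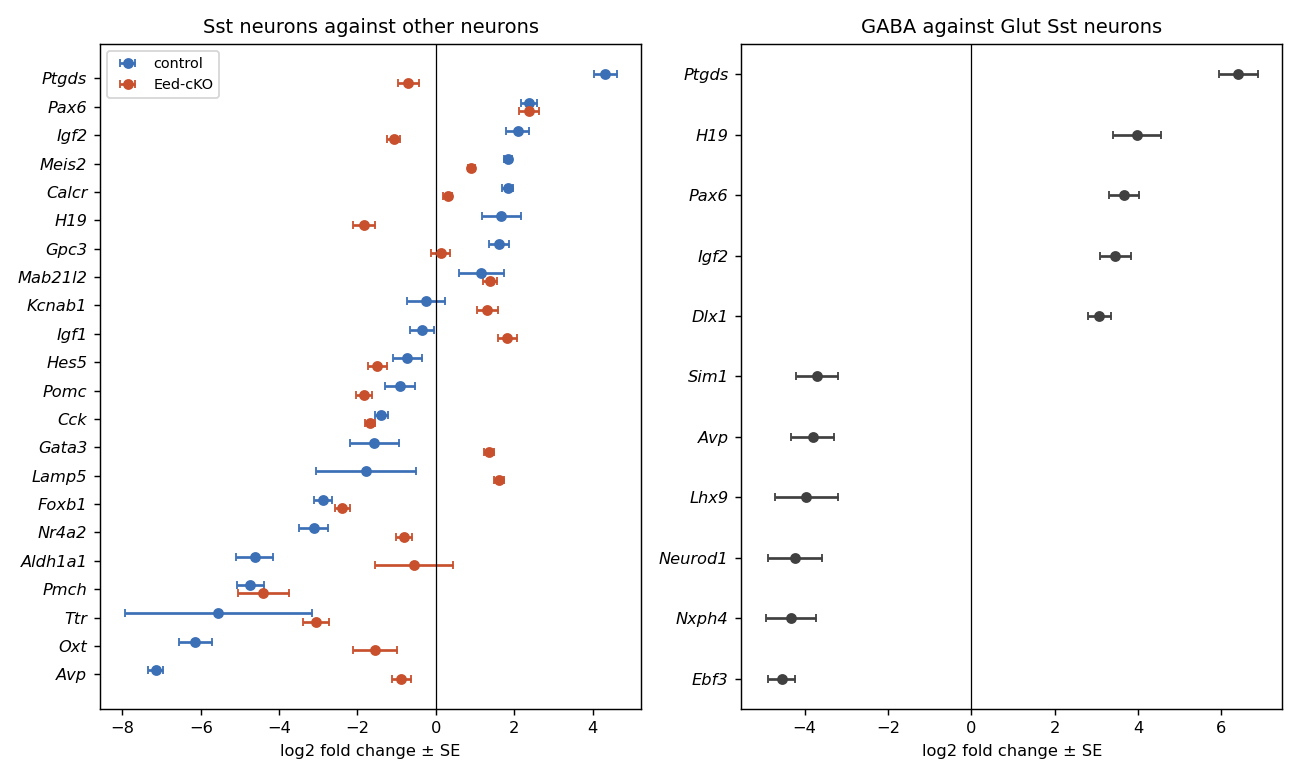
Left: log2 fold change ± SE of Sst neurons against other neurons for the genes named by size in either genotype and tested in both, control in blue and Eed-cKO in orange. Right: log2 fold change ± SE of GABA against Glut Sst neurons, embryos of both genotypes fitted together. Among the genes on the right, Ptgds, H19, Igf2 and Avp each lost the call in at least 1 setting. Pax6 lies at 2.37 and 2.38 in the left panel, Gata3 and Lamp5 lie above 0 in Eed-cKO alone, and in the right panel Dlx1 lies at 3.07 while Ebf3 lies at -4.55.

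GABA and Glut Sst neurons differed in their transcription factors. The 2 classes were compared within 12 embryos, 6 of each genotype, that had at least 5 cells of each class. Slc17a6 and Slc32a1, which chose the classes, were left out. The genotypes were fitted together and not apart, and control embryos gave 12 to 21 GABA cells each against 5 to 8 in Eed-cKO embryos. Of 10369 genes tested, 103 passed (0.993%), 38 higher (0.366%) and 65 lower (0.627%) in GABA Sst neurons; by library size alone 60 were higher and 52 lower. Of 20 forebrain GABAergic factors tested, 9 were higher and 1 lower, with a median of 1.91. Dlx1 was at 259 CPM on average in GABA and 20.5 CPM in Glut cells and was higher by 3.07 ± 0.28 (adjusted p = 7.9e-25). As given above, Dlx1 was detected in a far smaller share of Eed-cKO than of control GABA Sst neurons, so this value leans on the control embryos. Dlx2, Lhx6, Isl1, Meis2 and Six3 were higher by 2.92, 2.58, 2.46, 2.33 and 2.10, and Pax6 by 3.66 ± 0.36. Gad1 and Gad2 were higher by 1.96 ± 0.16 and 1.88 ± 0.20. Ptgds, H19 and Igf2 also passed as higher and Avp as lower. Without the cells with 3 non-neural markers, Igf2 was at 0.53, and neither it nor Ptgds passed. Without control embryo F4520_E2, H19 was at 1.69, and neither it nor Ptgds passed. Without Eed-cKO embryo F0652_E8, Avp was at -1.33 and did not pass.

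Of 42 hypothalamic and diencephalic identity factors tested, 14 were lower in GABA cells and 3 higher. Glut Sst neurons carried Ebf3, an early B-cell factor, at 307 CPM on average against 20.7 CPM (-4.55 ± 0.33, adjusted p = 2.23e-39), and Sim1, a factor of the paraventricular and supraoptic nuclei, at 91.2 against 9.64 CPM (-3.70 ± 0.51). Neurod1, a proneural factor, had 2 UMIs in GABA and 90 in Glut cells, a ratio of 0.0365 (95% counting interval, 0.00435 to 0.136), and Lhx9, a LIM homeobox factor, 2 and 57, a ratio of 0.0576 (0.00681 to 0.218). Nxph4, a neurexophilin, had 3 and 116 UMIs, a ratio of 0.0425 (0.00863 to 0.127). Pnoc was higher in GABA cells (1.17 ± 0.24) and Adcyap1, the PACAP precursor, was lower (-2.54 ± 0.56). Tal1 (0.17 ± 0.42), Gata3 (0.07 ± 0.49), Cartpt (0.77 ± 0.42) and Tac1 (-0.39 ± 0.42) did not pass, and of 9 Hox genes tested 0 did. Control cells held almost no UMIs of Tal1, Gata3 or Hox genes, so these values rest on Eed-cKO embryos with 5 to 8 GABA cells each. All 9 Hox genes had log2 fold changes above 0, from 0.0176 to 2.02, and so few cells cannot decide whether the classes differ in them.

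Within Eed-cKO the shares of cells with Tal1, Gata3, Lamp5 and Meis2 were highest in Glut/GABA Sst neurons. Tal1 was detected in 59.7% of Glut/GABA, 43.9% of GABA, 40.5% of Glut and 29.1% of the cells with neither transporter, Gata3 in 44.7%, 17.1%, 22.5% and 10.9%, and Lamp5 in 49.7%, 19.5%, 25.2% and 10.9%. Meis2 was detected in 71.1%, 51.2%, 36.0% and 25.5%. Median depth was 7204, 4870, 7425 and 3658 UMIs in these classes, so the shares of Glut/GABA and Glut cells are those at like depth, and no test was made between classes that share embryos. Ebf3 had its highest share, 42.3%, in Glut cells, and Six3 its highest, 65.9%, in GABA cells.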

How the data were processed

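The authors deposited counts of UMIs per gene and cell in 1 table of 16510 genes and 14121 cells, all libraries together. Per the labels and the methods, reads were aligned to mm10 with STAR (2.5.2b), SAMtools (1.3) was used, and cells of low UMI or gene number were removed; whether counting used strand is not given in the sources used here. The lowest cell holds 601 UMIs and 318 genes. Columns were mapped to embryos by library name, and the embryo was the replicate.

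The members, gene lists and tests were chosen with earlier results of these data known. UMIs were summed over the Sst neurons of each embryo with at least 10 of them, and genes with at least 15 UMIs over the sums and 2 in 1 sum were tested with edgeR's quasi-likelihood test (edgeR 4.0.16, R 4.3.3) after TMM scaling, with Benjamini-Hochberg adjusted p over all genes tested and a threshold of 0.05. Comparisons within embryos had the embryo as a block, including the interaction of genotype and cell set. Shares were compared with exact permutation tests over embryos (scipy 1.17.1). Log2 fold changes are given ± SE. Beside the listed genes, the genes named were the 8 rises and 8 falls between genotypes, and the 6 and 6 of each other comparison, with the largest fitted change at a mean of at least 20 CPM, Hox genes left out.

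Doublets were kept; the 6% of cells with the highest Scrublet score were removed as an alternative. Other alternatives were thinning to 2000 or 1000 UMIs, other scalings and filters, DESeq2 (1.42.0) and limma (3.58.1). Sex as a covariate, litter or library as the replicate, and each embryo left out were also run. Leaving out the largest library and the cells with 3 non-neural markers was chosen after seeing the data. Scripts were tested on simulated data. Gene positions are those of GRCm38. Some genes are not reported here.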

Additional observations from a re-analysis of the deposited data

Results flagged for a closer look

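The 43 groups of embryo values looked at were those of the Sst share, the transmitter classes, the Glut/GABA difference, the Hox load and the named genes. In 7 of them, all of named genes, an embryo stood apart from the others of its group by Dixon's test at 95%. Chance gives this in about 1 group of 20 where values are normally distributed, which sparse counts are not. In control Sst neurons these were Gata3 in F4520_E4, at 19.5 CPM with the others at 0, Lamp5 in F4650_E2, at 2.59 CPM with the others at 0, and Ptgds in F4520_E2, at 3650 CPM with the others at 0 to 25.9 CPM. In Eed-cKO Sst neurons they were Avp in F0652_E8, at 757 CPM with the others at 0 to 175 CPM, Ptgds in F0589_E1, at 49.0 CPM with the others at 0 to 15.9 CPM, Sp8 in F0582_E7, at 41.1 CPM with the others at 0 to 6.75 CPM, and Tcf7l2 in F502_E6, at 237 CPM with the others at 27.0 to 102 CPM. A gene with UMIs in only 1 embryo of its group is always flagged, which was so for Gata3 and Lamp5 in control.

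The genotype effect differed between Sst neurons and other neurons in the Glut/GABA share, by 20.3 percentage points (exact permutation p = 0.000666). By edgeR's interaction test it differed for 75 genes. Among those named by size, the log2 fold change in Sst neurons exceeded that in other neurons by 6.83 for Tal1 (adjusted p = 0.00437), 6.35 for Avp, 4.49 for Oxt, 2.74 for Gata3, 2.29 for Nr4a2 and 2.18 for Igf1. The sizes for Tal1 and Oxt rest on control Sst neurons with 0 and 2 UMIs. The difference was -4.67 for Ptgds, -4.12 for H19, -3.34 for Igf2, -3.17 for Col1a2 and -2.15 for Timp3, and these 5 did not pass without the cells that held 3 non-neural markers.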

How the results depend on the processing

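Of 175 settings of shares, 160 kept the direction and the side of the threshold, and of 1348 settings of the 64 genes named by size, 1267 did, 74 lost the call and 7 turned; 31 genes passed in every setting. The share of Glut Sst neurons, -0.845 points in the main comparison, was 2.87 with Npy not used, 6.71 and 6.48 at 2000 and 1000 UMIs, 6.59 with 2 UMIs asked of a transporter, 3.64 at 2000 UMIs without the largest library and -15.3 (adjusted exact permutation p = 0.000888) where Gad1 or Gad2 also counted as GABA. Leaving out 1 embryo gave -3.04 to 1.27 for Glut (0.192 without F4520_E4), -5.37 to 1.23 for cells with neither transporter, and 159 to 228 CPM for the Hox load. Without the largest library the fall in GABA cells was -28.6 points, and -14.0 at 2000 UMIs.

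The 233 genes between genotypes became 99 with limma's TREAT and 92 in GABA Sst neurons alone, and 149 to 288 without 1 embryo. The 75 interaction genes became 47 at 50 UMIs, 16 with DESeq2 and 59 to 120 without 1 embryo. Sst against other neurons gave 53 genes with DESeq2 and 39 with no embryo block in control, and 313 and 106 in Eed-cKO. Ptgds between genotypes was 0.22 without the cells holding 3 non-neural markers and -6.18 to 1.04 without 1 embryo. In the interaction, H19 was 1.47 without those cells and -4.95 to 0.18 without 1 embryo, and Col1a2 -3.68 to 0.76. Control Igf2 was -1.82 with DESeq2, -0.15 without those cells and 0.59 to 2.65 without 1 embryo. Fewer genes, samples or cells entered where any were left out; for the other settings the cause was not tested. No paired analysis was possible because the genotypes share no replicate number or litter. Depth limits the classes: at 1000 UMIs the Glut/GABA difference was 5.09 points.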
